A study of Homo sapiens with 60 samples.

Results

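Immediate early transcription factors are the proteins a cell makes first when a growth factor, a stress or fresh nutrients reach it. Their genes lie ready for transcription, respond before any protein has to be made, and give short-lived mRNAs, so their levels follow kinase signalling of the recent past. The set described here holds 10 genes chosen by symbol: EGR1, the AP-1 subunits FOS, FOSL1, JUN, JUNB and JUND, MYC, IER2, KLF6 and KLF10. All 10 were among the 29744 genes of the deposited table, and all 10 were among the 11298 genes that passed the filter on low counts.

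The study grew spheroids, small 3-dimensional aggregates, of HCT116, an established human colorectal cancer cell line. Butyrate, a fermentation product of gut bacteria (1 µM), hemin, the iron porphyrin of red meat (0.1 µM), kynurenine, a product of tryptophan breakdown (1 µM), kynurenic acid, which cells make from kynurenine (1 µM), or hemin with kynurenine was present from day 1 to day 8 after seeding, and 1 group stayed untreated. Each of these 6 treatments was sampled in 2 media, called Medium 1 and Medium 2 in the labels, with 5 libraries labelled as biological replicates in each of the 12 groups. The series design says that spheroids were either sampled at once or moved to nutrient-deprived medium for 3 h, but the labels do not tell which of the media was the deprived one, so their names are kept. Treatments and media were read from the sample titles, while the treatment field describes all 60 samples as untreated and nutrient-rich, so the group names rest on the titles alone. Every group came from the 1 line, and whether the replicates were separate cultures is not stated, so a p-value here speaks only of the spread among libraries, which may be technical.

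RNA was read from the 3' end of transcripts with molecular identifiers, so 1 count should stand for about 1 molecule, although the settings of that step were not given. Levels are given as CPM, a gene's counts relative to the scaled total of its library. Where 1 count is about 1 molecule, CPM can be set side by side between genes without dividing by length. Libraries held 1346135 to 3083231 counts, with a median of 1901981. No 2 libraries of a group were identical. The library in plate well A7 (Medium 2, kynurenine) correlated least with the rest of its group (0.9266), followed by well B2 (Medium 1, butyrate, 0.9422), and the comparisons were also fitted without both. Medium 1 libraries filled the first wells of the plate and Medium 2 libraries the later ones, so plate position and medium cannot be told apart. The libraries of each group also filled consecutive wells, so treatment and plate position cannot be told apart either. A fit with plate row as a term takes in the rows but not the plate columns along which the groups were laid. The 9 epithelial markers summed to 1160 to 1700 CPM in Medium 1 and to 1160 to 1500 CPM in Medium 2, with 1 of them at 0 in every library. The 5 fibroblast markers summed to 5.38 to 14.5 CPM in Medium 1 and 0 to 9.38 CPM in Medium 2, and 3 of the 5 were at 0 in every library. Immune, endothelial and erythroid marker sums stayed at or under 3.93 CPM in every library.

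The promoters of 5 members are shown because these genes carry the comparisons that follow: EGR1, JUN and JUNB differed most between the media in untreated spheroids, FOS is the classic partner of the JUN proteins, and JUND is the JUN protein whose level moved least. Each line gives the 250 bases upstream of the gene's annotated start in the RefSeq annotation of GRCh38.p14, 5′ to 3′ on the gene's own strand: EGR1 at chr5:138465229-138465478 (plus strand), FOS at chr14:75278578-75278827 (plus), JUN at chr1:58784048-58784297 (minus), JUNB at chr19:12791236-12791485 (plus) and JUND at chr19:18281623-18281872 (minus). Capitals mark matches to the motifs searched, on either strand.
EGR1: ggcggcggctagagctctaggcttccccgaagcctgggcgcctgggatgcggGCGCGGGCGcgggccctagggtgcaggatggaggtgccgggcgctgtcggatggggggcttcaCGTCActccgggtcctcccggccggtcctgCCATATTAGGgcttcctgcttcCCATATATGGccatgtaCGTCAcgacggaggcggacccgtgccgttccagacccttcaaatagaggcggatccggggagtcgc
FOS: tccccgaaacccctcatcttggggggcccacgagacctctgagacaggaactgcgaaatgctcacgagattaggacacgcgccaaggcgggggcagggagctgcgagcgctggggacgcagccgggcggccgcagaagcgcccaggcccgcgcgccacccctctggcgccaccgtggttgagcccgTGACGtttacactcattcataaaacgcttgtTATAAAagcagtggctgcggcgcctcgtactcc
JUN: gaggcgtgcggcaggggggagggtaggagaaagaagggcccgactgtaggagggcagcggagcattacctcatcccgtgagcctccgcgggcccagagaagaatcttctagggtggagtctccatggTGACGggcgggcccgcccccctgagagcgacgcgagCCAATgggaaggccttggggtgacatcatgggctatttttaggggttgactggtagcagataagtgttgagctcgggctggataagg
JUNB: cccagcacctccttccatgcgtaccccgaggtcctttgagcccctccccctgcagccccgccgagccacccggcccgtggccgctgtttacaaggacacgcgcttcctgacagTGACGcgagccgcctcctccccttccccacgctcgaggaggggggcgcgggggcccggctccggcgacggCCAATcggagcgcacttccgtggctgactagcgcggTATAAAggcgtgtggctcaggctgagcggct
JUND: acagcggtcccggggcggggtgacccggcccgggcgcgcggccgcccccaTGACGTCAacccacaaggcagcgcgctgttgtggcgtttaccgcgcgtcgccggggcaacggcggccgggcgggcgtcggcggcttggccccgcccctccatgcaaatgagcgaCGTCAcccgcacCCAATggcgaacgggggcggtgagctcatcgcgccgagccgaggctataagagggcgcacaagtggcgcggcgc

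The EGR1 window held 2 CArG boxes, the element that serum response factor binds (CC, 6 bases of A or T, then GG), starting 105 and 83 bases before the gene's start. A CArG box stood in 1.16% of 35116 promoter windows of this length and in 1 of the 7 windows found for the members. The short form of the cyclic-AMP response element, TGACG, read by CREB and ATF proteins, stood in 6 of the 7 windows and in 21.2% of all windows. The full element TGACGTCA, which overlaps it, stood in the JUND window alone (200 bases before the start, 1.65% of all windows). The EGR1-type motif GCGNGGGCG was found in EGR1 and KLF6 (8.41% of all windows), CCAAT in 4 of 7 (32%), TATAAA in FOS and JUNB (10.7%), and the AP-1 motif TGANTCA with C or G in the middle in 0 of 7 (4.2%). A match is a run of letters and was not tested as a binding site. Bases farther upstream than the windows and other variants of the motifs were not searched. A window without a match therefore does not show that the gene lacks the element. Of the members not printed, the protein-coding genes KLF6, IER2 and FOSL1 lie at chr10:3775996-3785209, chr19:13150411-13154911 and chr11:65892049-65900545 in the same build.

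Between the media, JUN, JUNB, FOS and EGR1 had the largest differences, all higher in Medium 2. On average over treatments KLF6 rose by less, MYC, KLF10 and IER2 by little, and FOSL1 and JUND did not pass the test. Averaged over the 6 treatments, JUN was 2.21-fold higher in Medium 2 (log2 difference 1.14 ± 0.07 SE), JUNB 2.12-fold (1.08 ± 0.07), FOS 2.05-fold (1.04 ± 0.20), EGR1 1.83-fold (0.87 ± 0.07) and KLF6 1.39-fold (0.48 ± 0.04). By the quasi-likelihood test of edgeR, with p adjusted over all tested genes after Benjamini and Hochberg, 8 of the 10 rose and none fell, with adjusted p from 9.44e-22 for JUN to 0.0223 for MYC. In that average 46.1% of all tested genes passed the same threshold, about as many higher (2577) as lower (2637). The median log2 difference was 0.41 over the 10 members and 0 over all genes. In bulk spheroids, more cells expressing a gene and more RNA per cell cannot be told apart.

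JUN, the AP-1 subunit that pairs with FOS proteins to drive proliferation and stress genes, separated the media completely. The 30 libraries in Medium 1 ran from 25.7 to 58.5 CPM (median 40.4) and the 30 in Medium 2 from 62 to 138 CPM (median 83.5). In untreated spheroids the Medium 1 libraries read 27.3, 30.8, 30.6, 27.2 and 39.5 CPM, and the Medium 2 libraries 120, 101, 126, 82.5 and 90.9 CPM. Every Medium 2 library lay above every Medium 1 library. The gap between the untreated groups was wider than the range of the Medium 1 group but not that of the Medium 2 group. The log2 difference was 1.74 ± 0.17 in untreated spheroids (adjusted p = 1.14e-11) and between 0.98 and 1.06 in the 5 exposed groups, called in all 6.

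JUNB, a JUN relative known both as an AP-1 activator and as a brake on JUN, followed the same order at lower levels. Untreated spheroids read 27.8, 33.5, 17.7, 25.4 and 38.5 CPM in Medium 1 and 93.3, 82, 100, 80.6 and 77.9 CPM in Medium 2, a 3.01-fold difference (log2 1.59 ± 0.17, adjusted p = 1.02e-10). Over all treatments Medium 1 spanned 17.7 to 48.8 CPM and Medium 2 spanned 46 to 100 CPM, so 27 of 30 Medium 2 libraries lay above every Medium 1 library. The difference was called in all 6 treatments, from 0.83 ± 0.16 with kynurenine upward.

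EGR1, a zinc finger factor induced through serum response factor, had medium differences from 0.39 to 1.73 (log2) across the treatments. Untreated Medium 1 libraries read 83.4, 121, 81.3, 89.6 and 88.2 CPM and untreated Medium 2 libraries 299, 274, 400, 318 and 254 CPM. Those groups were the lowest and the highest of the 12 (92.6 ± 16.1 and 309 ± 56.3 CPM, mean ± SD, n = 5), and their ranges did not overlap. The difference was 3.33-fold (log2 1.73 ± 0.16, adjusted p = 5.74e-12). It was 1.09 with butyrate, 0.76 with kynurenine, 0.68 with kynurenic acid and 0.59 with hemin, each called, and 0.39 ± 0.16 with hemin plus kynurenine (adjusted p = 0.0903). That last value passed with plate row as a term (adjusted p = 0.047) and in a fit of those 2 groups alone (0.0415).

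KLF6, a zinc finger factor studied as a tumour suppressor, had the highest mean of the 10 in all 6 Medium 2 groups. Its untreated libraries read 279, 318, 345, 343 and 314 CPM in Medium 1 and 482, 529, 533, 496 and 551 CPM in Medium 2, with no overlap. The difference was 1.62-fold (log2 0.70 ± 0.11, adjusted p = 3.36e-06). It was called in every treatment except kynurenine (0.23 ± 0.11, adjusted p = 0.171), where Medium 1 had its highest values (341 to 484 CPM). Without well B3, the library at 484 CPM, KLF6 with kynurenine passed as well (0.33, adjusted p = 0.0488). With hemin plus kynurenine the call (0.36, adjusted p = 0.0142) was lost without well F4, whose 246 CPM was the lowest KLF6 value of all 60 libraries (0.28, adjusted p = 0.0783).

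FOS, the partner of JUN in the classic AP-1 dimer, was present at very low levels, 0 to 29 counts per library. Untreated spheroids read 6.34, 1.81, 3.06, 3.63 and 1.03 CPM in Medium 1 and 7.50, 4.32, 13.2, 10.6 and 8.04 CPM in Medium 2, so the groups overlapped. FOS rose in the average and with butyrate (1.71 ± 0.48, adjusted p = 0.0153). In untreated spheroids the value was 1.44 ± 0.47 with an adjusted p of 0.051. It passed with plate row as a term, without wells B2 and A7, in the fit of those 2 groups, with DESeq2, and without well A1 or H4, with adjusted p from 0.0198 to 0.0416. At these counts no medium difference passed in the remaining treatments (0.09 to 1.15, adjusted p from 0.103 to 0.94). Leaving out well C2 with hemin, or well H2 or A7 with kynurenine, brought a call. With hemin plus kynurenine the ranges did not overlap, at 2.11 to 3.64 CPM in Medium 1 and 3.8 to 6.85 CPM in Medium 2 (0.9 ± 0.48, adjusted p = 0.199).

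The other members differed little on average or varied widely within groups. MYC, the growth regulator often raised in colorectal cancer, had a mean log2 difference of 0.34 ± 0.12, KLF10, a TGF-beta inducible repressor, 0.27 ± 0.10 (adjusted p = 0.0203), and IER2, a small nuclear early response protein, 0.19 ± 0.06 (adjusted p = 0.00465). None of these 3 was called within a single treatment in the fit of all groups. Their largest values were MYC with butyrate (0.69 ± 0.30, adjusted p = 0.136) and hemin (0.64 ± 0.32, 0.134) and KLF10 with hemin (0.61 ± 0.25, 0.0684). In untreated spheroids KLF10 read 45.7 to 75.9 CPM in Medium 1 and 77.2 to 101 CPM in Medium 2. These ranges did not overlap (0.43 ± 0.24, adjusted p = 0.327). IER2 with butyrate passed once well B2, its highest library at 449 CPM, was left out (0.46, adjusted p = 0.00776). Without wells B2 and A7, IER2 passed in untreated spheroids (0.38, adjusted p = 0.0246) and with hemin plus kynurenine (0.30, 0.0495), and KLF10 passed with hemin (0.61, 0.0417). In fits of the 2 groups alone, IER2 (adjusted p = 0.00901) and KLF10 (0.0322) passed in untreated spheroids and MYC (0.0389) and KLF10 (0.0353) with hemin. KLF10 with hemin also passed without well C6 (0.70, adjusted p = 0.05). FOSL1, a FOS relative sustained by ERK signalling, spanned 39.3 to 79.3 CPM in Medium 1 and 38.1 to 85.8 CPM in Medium 2 (0.05, 95% interval -0.07 to 0.18, adjusted p = 0.518). JUND, the JUN protein that most cells keep at a steady level, spanned 250 to 408 and 238 to 574 CPM (0.11 ± 0.05, adjusted p = 0.0579), and leaving out 1 of 15 different libraries brought it under the threshold with values of 0.12 or 0.13.

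Within single treatments, members were called in 4 of 10 cases for untreated spheroids (EGR1, JUN, JUNB and KLF6), where 6.38% of all tested genes were called. They numbered 5 with butyrate (FOS as well, 9.89% of all genes), 4 with hemin (23.9%), 3 with kynurenine (EGR1, JUN and JUNB, 8.01%), 4 with kynurenic acid (8.56%) and 3 with hemin plus kynurenine (JUN, JUNB and KLF6, 16.3%). All of these calls were higher in Medium 2. The fit of the 2 untreated groups alone called 7, with 1134 genes of the table called in place of 721.

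**Figure D1:**
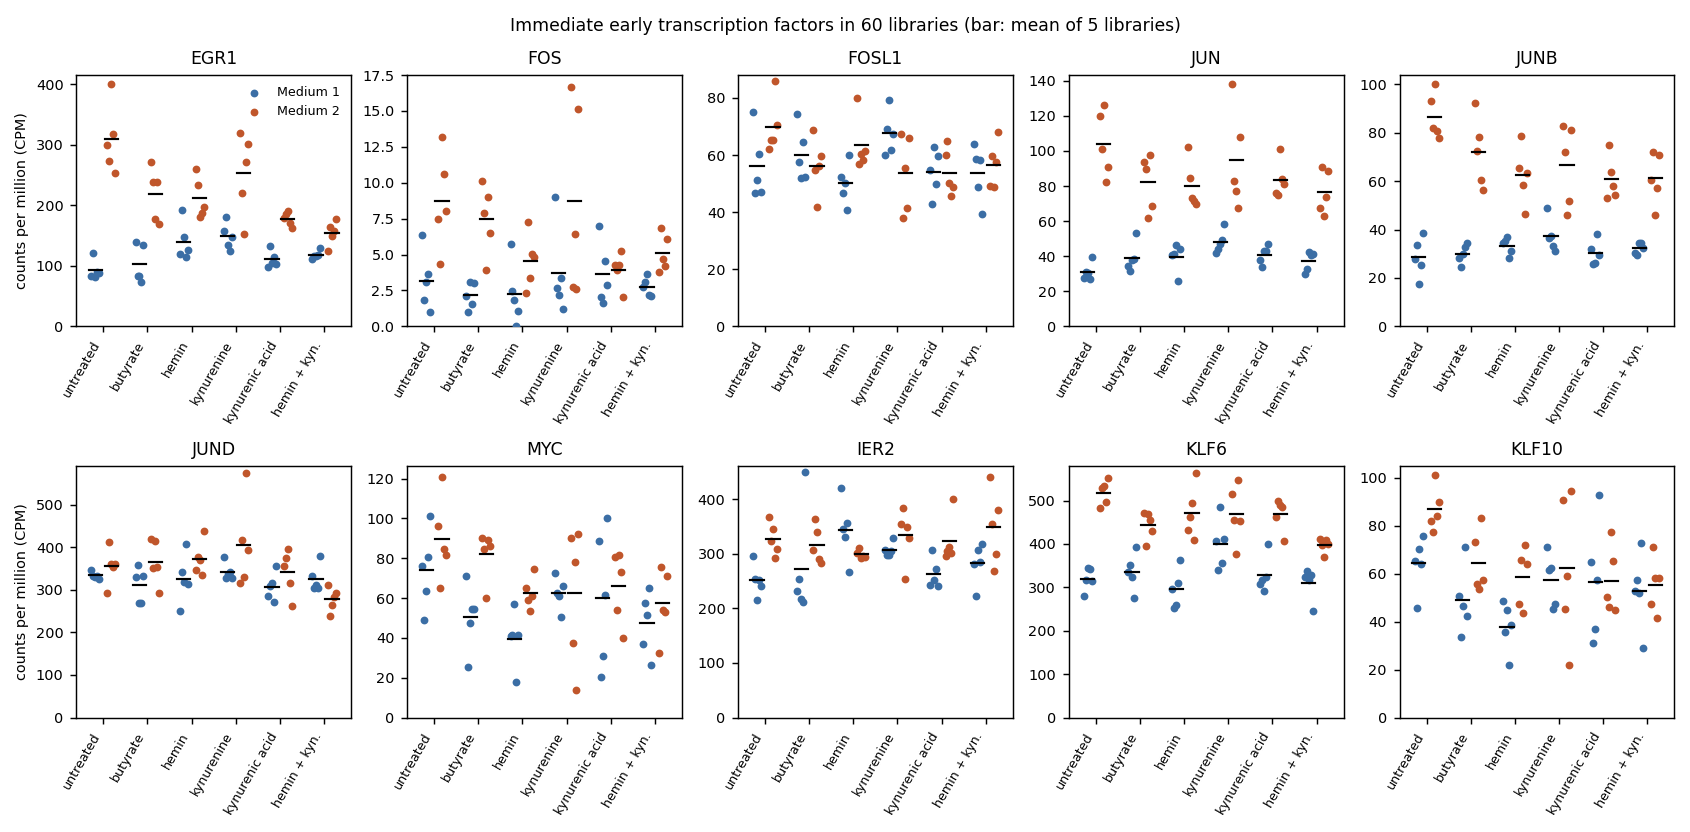
Level of each of the 10 members in every library (vertical axis, CPM, starting at 0) by treatment, with Medium 1 in blue, Medium 2 in orange, and a bar for the mean of the 5 libraries of a group. JUN libraries of Medium 2 (62 to 138 CPM) all sit above those of Medium 1 (25.7 to 58.5 CPM), while JUND and FOSL1 overlap in both media.

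**Figure D2:**
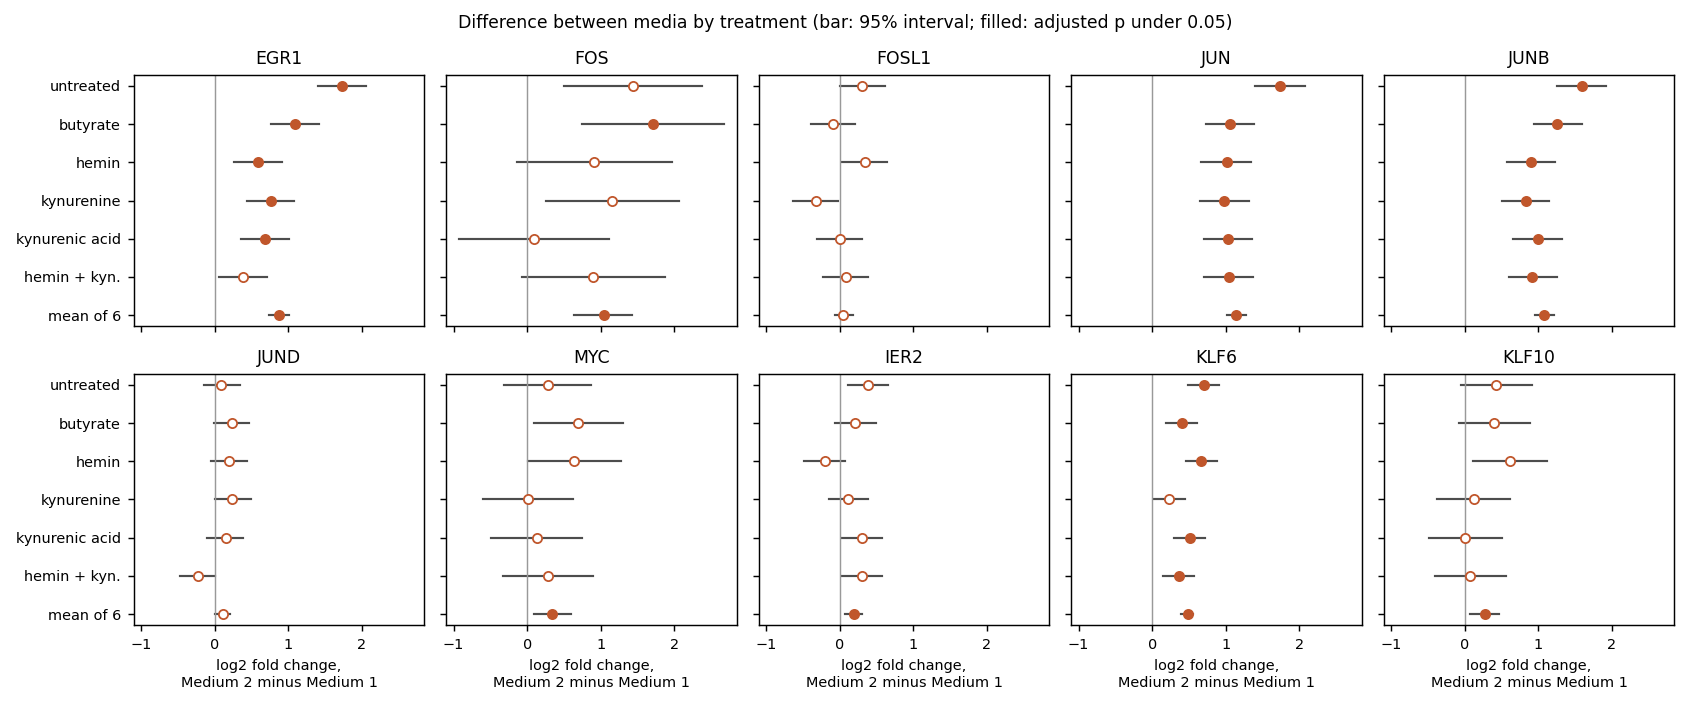
Log2 fold change between media (Medium 2 minus Medium 1, horizontal axis) for each treatment and for their mean, with 95% intervals from the edgeR fit and filled points where the adjusted p was under 0.05. The EGR1 points move from 1.73 in untreated spheroids to 0.39 with hemin plus kynurenine. The JUN points move from 1.74 in untreated spheroids to between 0.98 and 1.06 in the exposed groups.

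The question of whether the metabolites themselves moved these genes was asked within each medium against its untreated group. In Medium 1, EGR1 values were above untreated with all 5 exposures, by 0.15 with butyrate to 0.68 ± 0.17 with kynurenine on the log2 scale, and in Medium 2 they were below untreated with all 5, by -0.29 with kynurenine to -1.0 with hemin plus kynurenine. The 5 comparisons of a medium share its untreated libraries, so these signs are not independent. EGR1 was the only member that edgeR called with any single exposure, in 2 of the 10 comparisons, both lower and both in Medium 2.

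In Medium 2 with hemin plus kynurenine, EGR1 read 125, 164, 150, 158 and 178 CPM against 254 to 400 CPM untreated, with no overlap. It fell to 0.501 of the untreated level (log2 -1.0 ± 0.16, adjusted p = 0.000156), where 0.558% of all genes were called and 1 of 10 members. With kynurenic acid the libraries read 179, 186, 190, 171 and 163 CPM, again below every untreated one, and EGR1 fell to 0.575 of untreated (-0.80 ± 0.16, adjusted p = 0.0341), with 0.0177% of all genes and 1 of 10 members called. That call was lost when well G4 or A5 of the untreated group, or any 1 of the 5 kynurenic acid libraries, was left out (adjusted p up to 0.345).

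The other exposures in Medium 2 gave 0 of 10 members called with edgeR or DESeq2. Of all genes, edgeR called 0% with butyrate, 0% with hemin and 0.0266% with kynurenine. At an unadjusted p under 0.05 both tools had 4 members with butyrate, 4 with hemin and 2 with kynurenine, where edgeR had 3.55%, 7.57% and 6.92% of all genes. EGR1 read 169 to 272 CPM with butyrate, 181 to 260 CPM with hemin and 153 to 319 CPM with kynurenine, so each group overlapped the untreated range. Of the 25 exposed libraries of Medium 2, 20 lay below the lowest untreated EGR1 value and 0 above the highest. The same counts were 20 and 0 for JUNB, 21 and 0 for KLF10, 19 and 0 for FOSL1 and 18 and 1 for KLF6. They were 13 and 1 for JUN, 12 and 0 for MYC, 11 and 2 for FOS, 5 and 5 for JUND and 4 and 4 for IER2. Over all tested genes the median was 4 below and 4 above, and 1.1% of genes had at least 18 libraries below.

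With hemin plus kynurenine in Medium 2, several members had values below untreated that did not pass the test. KLF6 stood at -0.38 ± 0.10 (adjusted p = 0.0653, 370 to 411 CPM against 482 to 551 CPM), JUNB at -0.50 ± 0.15 (0.113), KLF10 at -0.65 ± 0.24 (0.19) and JUN at -0.44 ± 0.16 (0.168). KLF6 passed with DESeq2 (adjusted p = 0.0224), with a minimum count of 30, without wells B2 and A7, and in the fit of those 2 groups, where KLF10 passed too (0.0348). At an unadjusted p under 0.05 this comparison had 8 of the 10 members and 13.6% of all genes, and the libraries of FOSL1, JUN, JUND and MYC overlapped the untreated range.

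In Medium 1 edgeR called 0 of 10 members with each exposure, against 0.00885% of all genes with butyrate, 0.133% with hemin, 0.0354% with kynurenine, 0% with kynurenic acid and 0.0266% with hemin plus kynurenine. At an unadjusted p under 0.05 the members numbered 0, 5, 5, 1 and 2 in that order with edgeR, and 0, 5, 5, 1 and 1 with DESeq2. The edgeR shares of all genes at that threshold were 8.54%, 21.5%, 3.79%, 3.27% and 4.97%. DESeq2 called 3 members with hemin, along with 509 genes of the table where edgeR called 15, and 0 members with the other exposures. The 3 were EGR1 (0.61, adjusted p = 0.0271), IER2 (0.47, 0.0328) and KLF10 (-0.74, 0.0489). In the edgeR fit EGR1 had an adjusted p of 0.0581 there, IER2 0.065, KLF10 0.0802 and MYC 0.0909 (-0.88 ± 0.31). Without wells B2 and A7 all 4 passed, with 755 genes of the table, although neither well belongs to the groups compared.

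The hemin libraries of Medium 1 read 120, 192, 148, 115 and 126 CPM for EGR1 and the kynurenine libraries 157, 180, 135, 124 and 148 CPM, against 81.3 to 121 CPM untreated. The kynurenine group lay wholly above the untreated one, and the hemin group overlapped it only through well B1, at 121 CPM the highest untreated library. EGR1 with kynurenine had an adjusted p of 0.147, and it passed with plate row as a term (0.0335) and in the fit of those 2 groups (0.0214). JUN with kynurenine ran from 41.6 to 58.5 CPM, also above all untreated values (27.2 to 39.5 CPM), at 0.62 ± 0.18 (adjusted p = 0.605).

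**Figure D3:**
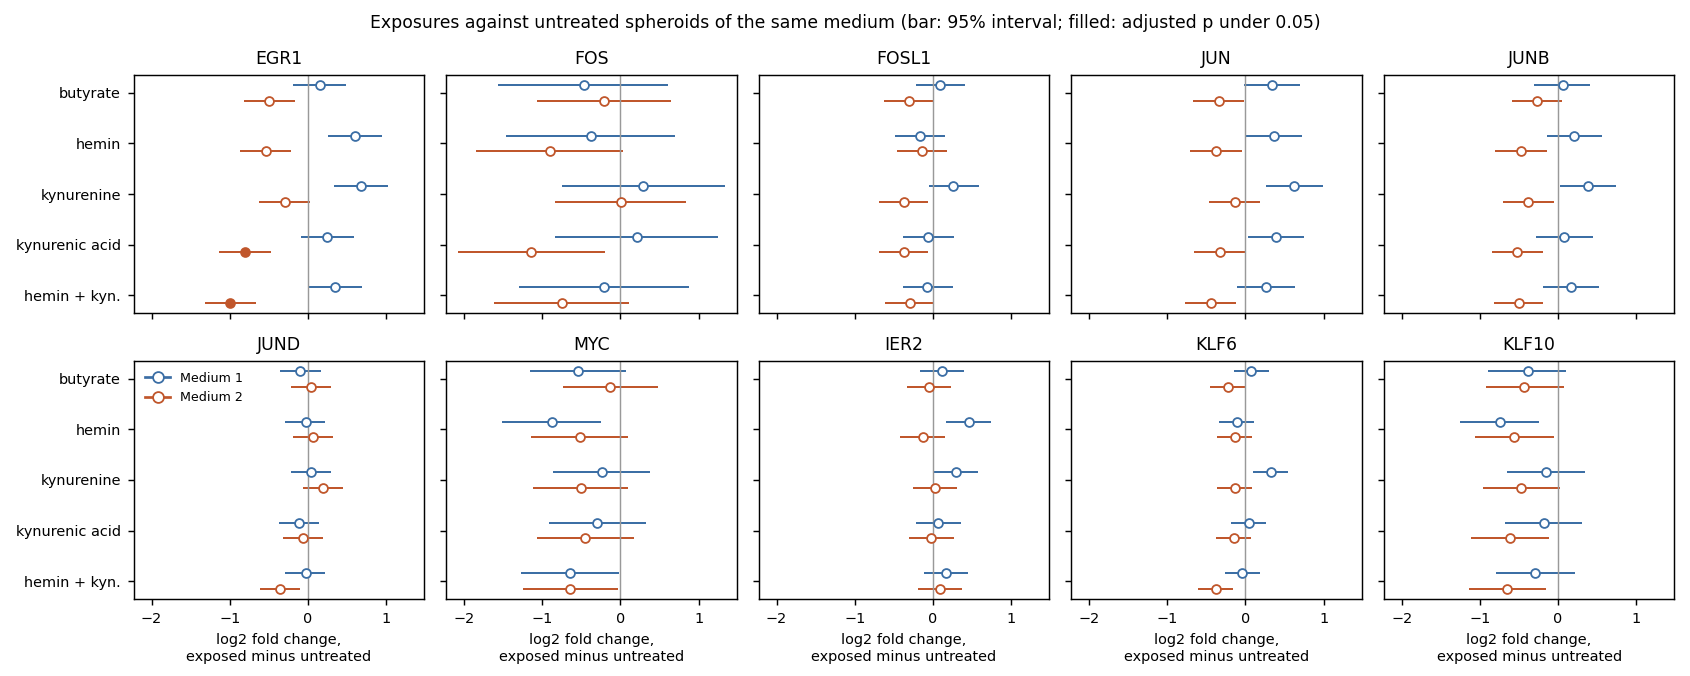
Log2 fold change of each exposure against untreated spheroids of the same medium (horizontal axis), Medium 1 in blue and Medium 2 in orange, with 95% intervals and filled points where the adjusted p was under 0.05. For EGR1 all Medium 1 points lie at or right of 0.15 and all Medium 2 points at or left of -0.29, and the 2 filled points are EGR1 in Medium 2.

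Whether the medium difference itself depended on the exposure was tested jointly, with 5 interaction terms per gene. EGR1 was the 1 of 10 members called (adjusted p = 0.00643), where 0.487% of all genes were called. For hemin plus kynurenine the EGR1 medium difference was smaller than in untreated spheroids by -1.35 ± 0.23 on the log2 scale (adjusted p = 0.00107, 1 of 10 members and 0.0266% of all genes called). The terms for hemin (-1.14 ± 0.23, adjusted p = 0.0624), kynurenic acid (-1.05, 0.28), kynurenine (-0.97, 0.114) and butyrate (-0.64, 0.982) had the same sign and did not pass. JUN had 5 negative terms from -0.76 to -0.68 and JUNB 5 from -0.76 to -0.33, with joint adjusted p of 0.207 and 0.2. All 5 terms share the untreated libraries of both media.

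The joint test of any exposure called EGR1 in Medium 2 (adjusted p = 0.00168, 1 of 10 members, 0.142% of all genes) and 0 of 10 members in Medium 1 (EGR1 0.135, 0.0797% of all genes). At an unadjusted p under 0.05 the Medium 1 test had 4 members and 12.9% of all genes. The joint tests were not run with DESeq2. In Medium 1, EGR1 passed without well F1, B2 or G2 (adjusted p from 0.0338 to 0.0413), IER2 without B2 (0.023) and KLF6 without G2 (0.0395). In Medium 2, JUND passed as well without well F6 (0.0443).

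The mean of the 5 exposures against untreated, a comparison added after the values were seen, put EGR1 at 0.41 ± 0.13 in Medium 1 (adjusted p = 0.553) and at -0.63 ± 0.12 in Medium 2 (adjusted p = 0.00541). The difference between these 2 means was -1.03 ± 0.18 (adjusted p = 0.00305), and EGR1 was the only gene of the table called there (0.00885%). The Medium 2 mean called 1 of 10 members and 0.0797% of all genes, and its call was lost without well A5, the untreated library at 400 CPM (-0.52, adjusted p = 0.212). For Medium 1, edgeR and DESeq2 each called 0 of 10 members, and edgeR called 0% of all genes. At an unadjusted p under 0.05 each tool had 4 members there, and edgeR had 8.17% of all genes.

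Kynurenine and kynurenic acid, which differ in that the amino acid side chain of kynurenine has closed into an aromatic ring in kynurenic acid, were compared at 1 µM over the same days. EdgeR and DESeq2 called 0 of 10 members in either medium, with 0.0354% of all genes called by edgeR in Medium 1 and 0.00885% in Medium 2, and 3 members at an unadjusted p under 0.05 in each medium with each tool. At that threshold edgeR had 3.74% of all genes in Medium 1 and 5.9% in Medium 2. The largest values were FOS in Medium 2 (-1.14, 95% interval -2.06 to -0.22), EGR1 in Medium 2 (-0.51, -0.83 to -0.19) and EGR1 in Medium 1 (-0.43, -0.76 to -0.10), kynurenic acid minus kynurenine, all with adjusted p of 0.58 or more. These intervals leave room for lower EGR1 with kynurenic acid, so the data do not show that the compounds act alike. The intervals for KLF6 and FOSL1 in Medium 2 were centred at 0 (-0.21 to 0.21 and -0.31 to 0.31).

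Hemin plus kynurenine was also set against each compound alone, which makes 6 pairs of groups compared with the 2 above, each with p-values adjusted over all genes. In Medium 1, 0 of 10 members were called with either tool against kynurenine (0.0177% of all genes) or against hemin (0.0177%). At an unadjusted p under 0.05 edgeR had 4 and 1 members there, and DESeq2 3 and 1, beside 3.77% and 12.2% of all genes with edgeR. In Medium 2 against kynurenine, EGR1 (-0.70 ± 0.16) and JUND (-0.54 ± 0.12) were lower, both with adjusted p = 0.0371, 2 of 10 members against 0.168% of all genes. Both calls were lost without well A7, where JUND read 574 CPM (EGR1 -0.70, adjusted p = 0.129; JUND -0.41, adjusted p = 0.217). They were also lost without well G6, H7, A8 or D8, with plate row as a term and in the fit of those 2 groups, and EGR1 without B7. Against hemin in Medium 2, edgeR called 0 of 10 members (0.434% of all genes; at an unadjusted p under 0.05, 3 members and 16.4% of all genes) and DESeq2 called JUND (-0.43, adjusted p = 0.0351), which also passed without wells B2 and A7 (0.0288) and in the fit of those 2 groups (0.0451).

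If 1 count stands for about 1 molecule, the JUN family can be read as shares within a library. JUND made up 84.9% ± 2.69 (SD, n = 5) of JUN, JUNB and JUND counts in untreated Medium 1 spheroids and 65.0% ± 5.05 in untreated Medium 2 spheroids. JUN was at 7.90% ± 1.18 and 19.1% ± 3.33, and JUNB at 7.24% ± 1.86 and 15.9% ± 1.85, so the ranges of the untreated groups did not overlap for any of the 3. JUND remained the most abundant in all 12 groups, from 65.0% to 84.9% on average. With kynurenine in Medium 2 the JUND share ran from 58.9% to 82.7% (70.9% ± 8.71), and to 72.9% without well A7 (68.0% ± 6.56, n = 4). FOS was the minor part of FOS plus FOSL1, at 3.59% to 6.28% on average in the groups of Medium 1 and 6.90% to 12.3% in those of Medium 2.

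**Figure D4:**
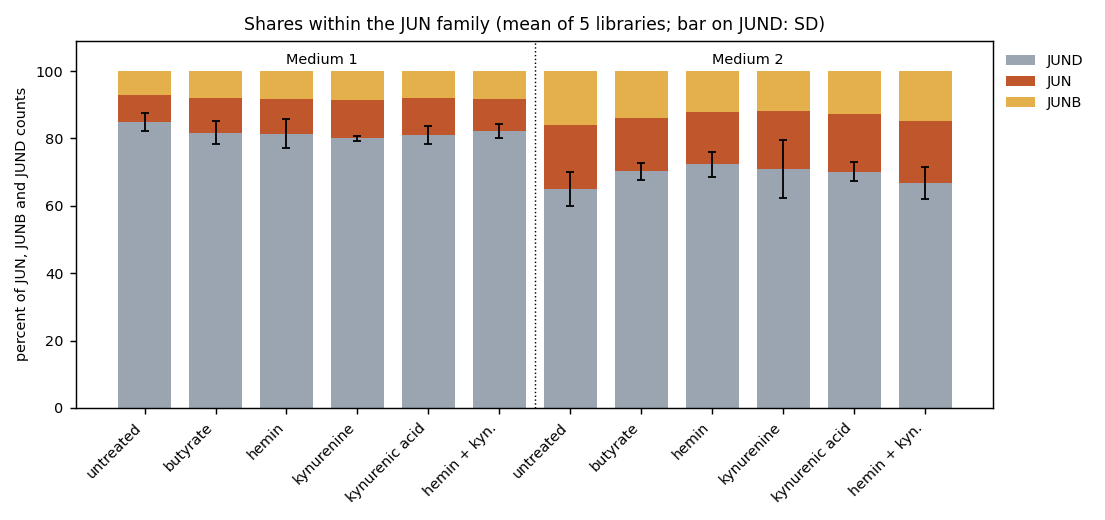
Mean share of JUND, JUN and JUNB in their summed counts (vertical axis, percent) in each of the 12 groups of 5 libraries, with the SD of the JUND share as an error bar. JUND is at 84.9% in untreated Medium 1 spheroids and at 65.0% in untreated Medium 2 spheroids, and the exposed groups of each medium lie between these values.

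The order of the groups by mean level gave little separation beyond the medium. For JUN, JUNB, EGR1 and FOS the 6 Medium 1 groups were the 6 lowest. The only neighbours in any member's order whose ranges did not overlap were kynurenine in Medium 1 (48.1 CPM for JUN, 37.4 CPM for JUNB) and the Medium 2 group next above it (76.7 CPM with hemin plus kynurenine for JUN, 60.8 CPM with kynurenic acid for JUNB). EGR1 groups ran from 92.6 CPM to 309 CPM, with hemin plus kynurenine in Medium 2 (155 ± 19.6 CPM) next above kynurenine in Medium 1 (149 CPM). KLF6 with kynurenine in Medium 1 (400 CPM) lay between hemin plus kynurenine (397 CPM) and butyrate (443 CPM) in Medium 2, among the Medium 2 groups. IER2 had its lowest mean in untreated Medium 1 (251 ± 29 CPM) and its highest in Medium 2 with hemin plus kynurenine (349 ± 68.0 CPM). Hemin in Medium 1 followed at 344 ± 55.6 CPM.

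MYC and KLF10 had wide spreads within groups and moved together there. Kynurenic acid in Medium 1 gave 88.6, 20.2, 31.1, 61.5 and 100 CPM for MYC and 64.7, 31, 37, 57.4 and 92.7 CPM for KLF10 in the same order of libraries. The lowest MYC library was also the lowest KLF10 library in 11 of 12 groups. After subtracting group means, log2 CPM of the 2 genes correlated at r = 0.86 over 60 libraries (Spearman 0.77, and r = 0.81 without the 2 libraries farthest from the median). This is a description over libraries that share groups and a plate, and it was the highest of the 45 pairs of members (median 0.14, lowest -0.43). FOS followed KLF10 (0.62) and MYC (0.60), and JUND ran against MYC (-0.43). Without wells B2 and A7, over 58 libraries, MYC and KLF10 correlated at 0.82, FOS with KLF10 at 0.59 and with MYC at 0.55, and JUND with MYC at -0.27.

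**Figure D5:**
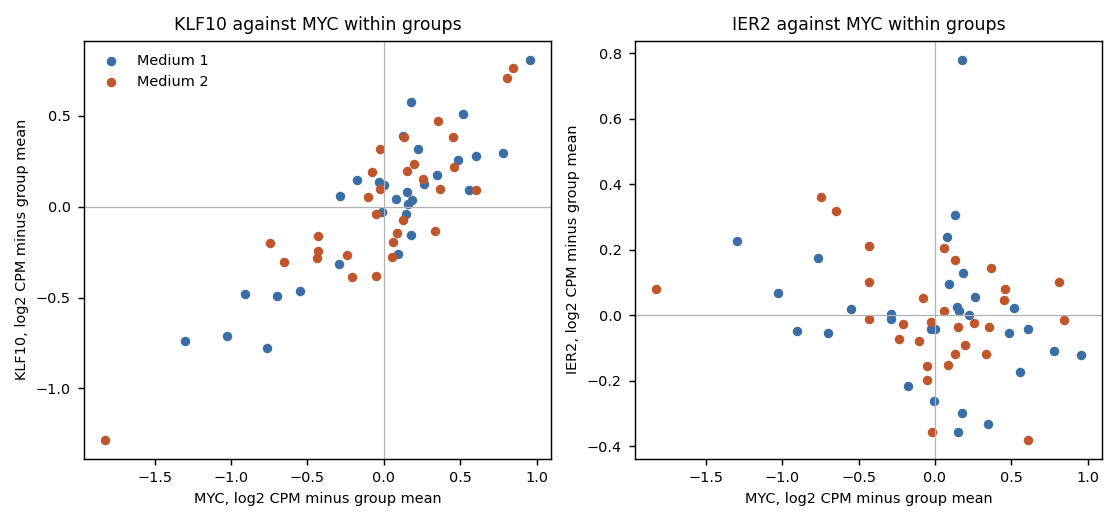
Each point is 1 of 60 libraries, with MYC on the horizontal axis and KLF10 (left) or IER2 (right) on the vertical axis, as log2 CPM minus the mean of the library's group. KLF10 is high where MYC is high (r = 0.86), with well A7 at the lower left, while IER2 has r = -0.26 with MYC.

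The spread of MYC and KLF10 lay along the main axis of variation inside groups, the first principal component of group-centred values of all tested genes, which held 13.4% of that variance. MYC correlated with it at 0.87, KLF10 at 0.86, FOSL1 at 0.58 and FOS at 0.52, IER2 at -0.53, JUND at -0.48, EGR1 at -0.05 and KLF6 at 0.01. Without wells B2 and A7 the values were 0.88 for MYC, 0.84 for KLF10, 0.55 for FOSL1, 0.51 for FOS, -0.54 for IER2, -0.35 for JUND, 0.05 for EGR1 and 0.20 for KLF6. The members are among the genes that define it. The lowest scores belonged to wells A7 (-50.8), F4 (-31.1), F2 (-30.2) and F3 (-24.9), where MYC read 13.7, 26.2, 17.7 and 20.2 CPM. Wells F2, F3 and F4 share a plate row, but the row was not low throughout. Its other wells scored -9.3 (F5), 4.8 (F7), 18.2 (F6) and 19 (F1). The part of F2, F3 and F4 in MYC and KLF10 values was not tested beyond the fit with plate row as a term. That fit kept both calls in the average between media. Inside groups, total counts correlated with MYC at 0.15, KLF10 at 0.04, KLF6 at -0.44, JUND at -0.43 and FOS at 0.38. The other members lay between -0.17 and 0.11. Libraries with hemin plus kynurenine in Medium 2 held 2151092 to 2981625 counts, against 1617479 to 1934973 in untreated Medium 2. Whether depth affected comparisons of these groups was not tested.

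Genes whose pattern was most like each member's were found among 8732 other genes with a mean of at least 10 CPM. By the 12 group means, JUNB was closest to SIAH2, a ubiquitin ligase (r = 0.99), JUN to SDC4, a heparan sulfate proteoglycan (0.98), EGR1 to BTG1, an anti-proliferative gene (0.97), FOS to ZFP36, which binds AU-rich mRNAs (0.95), and KLF6 to CREBRF (0.97). The others were CD9 for MYC (0.97), AC009501.4 for KLF10 (0.96), CAND1 for IER2 (0.92), TCF20 for JUND (0.90) and ZFP36L1 for FOSL1 (0.80). Inside groups, over 60 libraries, MYC was closest to GNAI1 (0.92), KLF10 to SPINT2 (0.91), IER2 to STK35 (0.89), JUND to AP2S1 (0.76), JUN to PERP (0.75), KLF6 to NDRG1 (0.74), JUNB to BHLHE40 (0.72), FOS to RB1 (0.71), FOSL1 to PSMB3 (0.66) and EGR1 to H3F3AP4 (0.65). H3F3AP4 is a histone pseudogene, whose counts may include reads of its near-identical parent. Each gene named is the top of 8732, and the group means give only 12 points. With 46.1% of all tested genes called between the media on average, high r values by group means were likely for some gene. None of these r values was tested, and the matches inside groups were not repeated without wells B2 and A7.

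Other early response transcription factors were listed to set the members in their class. Of 20 tested, 9 rose and 5 fell in Medium 2 on the average of treatments, with a median log2 difference of 0.22 against 0 over all genes and 46.1% of all genes called. BHLHE40, a basic helix-loop-helix repressor, rose by 1.72 ± 0.10 (adjusted p = 1.8e-22), from 20.1 ± 4.22 to 84.1 ± 10.2 CPM in untreated spheroids. ATF3, a stress-induced partner of JUN, rose by 1.2 ± 0.08, and CSRNP1 by 0.75 ± 0.08. ID1, an inhibitor of differentiation factors, fell by 0.59. In untreated spheroids alone 7 rose and 1 fell, where 6.38% of all genes were called. With hemin plus kynurenine in Medium 2, 3 of the 20 fell, where 0.558% of all genes were called. They were BHLHE40 (-0.85, adjusted p = 0.0453), ID1 (-0.51, 0.0433) and HES1, a Notch target named after its values were seen (-1.27, 0.000813). HES1 was also the 1 of 20 that fell in the mean of the 5 exposures in Medium 2 (-1.0, adjusted p = 0.000644, 0.0797% of all genes called). The mean for Medium 1 called 0 of the 20 and 0% of all genes.

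Early response effectors and feedback genes showed 13 of 32 higher and 7 lower in Medium 2 on average, with a median of 0.13. The share of 46.1% of all genes called in that average is the background for this list and for those that follow. BTG2 rose by 0.98 ± 0.08, BTG1 by 0.63 ± 0.06, the survival gene MCL1 by 0.55 ± 0.05 and DUSP6, the phosphatase that damps ERK, by 0.64 ± 0.06. DUSP6 stood at 216 ± 32.2 CPM in untreated Medium 1 and at 387 ± 27.9 CPM in untreated Medium 2. Upstream kinases and ternary complex factors showed 6 of 29 higher and 5 lower, with a median of 0.03. EGFR fell by 0.61, ERBB3 by 0.58 and ELK3 by 0.29, and CREB1, whose protein binds TGACG elements, rose by 0.35 ± 0.05. In untreated spheroids 0 of the 29 were called, beside 6.38% of all genes.

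Around MYC, 3 of 14 network genes rose and 5 fell on average (median -0.02). MXD1, an antagonist that competes with MYC for MAX, rose by 1.17 ± 0.09, MAX by 0.41 ± 0.07 and MLX by 0.33 ± 0.08, and MXD3 fell by 1.02. Of 19 MYC target genes 10 rose and 2 fell (median 0.17), with NPM1 at 0.28 ± 0.03, LDHA at 0.53 ± 0.07 and POLR1B at 0.42 ± 0.06 higher and NOP56 lower (-0.38). Of 15 KLF family and TGF-beta inducible genes 4 rose and 5 fell (median 0). SMAD7, the inhibitory SMAD, fell by 2.04 (14.6 ± 4.02 to 2.81 ± 2.29 CPM in untreated spheroids), KLF13 fell by 0.36, and SKI rose by 0.30 ± 0.06. AU-rich elements are the signals that make early response mRNAs short-lived. Of 8 genes for proteins that bind these elements or take part in mRNA decay, 3 rose and 3 fell. TIA1 fell by 0.60, and CNOT7 (0.21 ± 0.04), HNRNPD (0.18 ± 0.04) and ELAVL1 (0.15 ± 0.05) rose.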

How the data were processed

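Per the labels' protocols, RNA of HCT116 spheroids was extracted with RNeasy columns, and QuantSeq 3' FWD libraries carrying molecular identifiers were made from 48 ng with 18 PCR cycles. The labels call the molecule cytoplasmic RNA. The authors deposited estimated counts per gene in 1 table. The tools named in the submitters' processing notes are Salmon 1.5.2, STAR, cutadapt 3.4, UMI-tools 1.1.2 and FastQC 0.11.9, with the build GRCh38. Their order and settings, the annotation and how reads matching several genes were handled were not given in sources used here. Antisense or near-identical genes could share counts.

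Of the deposited estimated counts, 10.1% were not whole (21.4% of the nonzero values) and were rounded. Groups came from the sample titles, because the treatment field calls all 60 samples untreated and nutrient-rich, against the titles. Columns name the group and the plate well but no replicate number. Genes were kept by filterByExpr (minimum count 10, total 15), scaled by TMM and fitted in edgeR 4.0.16 (R 4.3.3, limma 3.58.1) with 12 group means and 48 residual degrees of freedom. The quasi-likelihood test was used with Benjamini-Hochberg adjustment over all 11298 genes of a comparison and a threshold of 0.05. Each SE was taken as the absolute log2 fold change over the root of its F value. Fold changes are on the fitted log2 scale, CPM use TMM library sizes, and group-centred log2 CPM use a prior count of 2. Total counts per library set the precision. On simulated data, the untreated comparison of the media recovered 69.7% of 99 genes changed by 1 and 99% of 97 changed by 2 on the log2 scale, with 4 false among 169 calls.

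The members and gene lists were chosen with earlier results of these data known. Named genes were the 10 members in every comparison, for each the most alike gene by each of the 2 correlations, and from each of 7 lists the 4 with the smallest p between the media averaged over treatments, of which 1 is not reported here. Alternatives were RLE scaling, DESeq2 1.42.0, no filter, a minimum count of 30, the 2 groups compared alone, plate row as a term, and leaving out wells B2 and A7 or each library. Promoter sequences are from RefSeq, GRCh38.p14, matched by symbol for 7 members.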

Additional observations from a re-analysis of the deposited data

Results flagged for a closer look

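In 9 of 120 groups of 5 libraries (10 members in 12 groups), 1 library stood apart from the other 4, where chance flags about 1 in 20. EGR1 in untreated Medium 1 had well B1 at 121 CPM, with the next at 89.6 CPM. JUN in the same group had well E1 at 39.5 CPM against 30.8 CPM. With kynurenine in Medium 1, well H2 was the highest for FOS (9.04 CPM against 3.34 CPM) and for JUND (376 CPM against 341 CPM). IER2 was high in well B2 with butyrate in Medium 1 (449 CPM against 253 CPM) and in well G7 with kynurenic acid in Medium 2 (400 CPM against 313 CPM). FOSL1 was high in well A6 with hemin in Medium 2 (80 CPM against 61.5 CPM). MYC was low in well F5 with butyrate in Medium 2 (60 CPM against 84.6 CPM), and KLF6 was low in well F4 with hemin plus kynurenine in Medium 1 (246 CPM against 318 CPM).

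EGR1 was the member whose effect of exposure differed between the media by a test of the difference itself. The joint test of the 5 interaction terms gave an adjusted p of 0.00643 with edgeR. The term for hemin plus kynurenine was -1.35 (adjusted p = 0.00107), and the added term for the mean of the 5 exposures was -1.03 (adjusted p = 0.00305). Group means stood on opposite sides of untreated in the media, 118 against 92.6 CPM in Medium 1 and 155 against 309 CPM in Medium 2 with hemin plus kynurenine. The Medium 1 difference alone did not pass (log2 0.35, adjusted p = 0.95 with edgeR), so a rise there is not shown.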

How the results depend on the processing

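No paired analysis was possible because the table's columns carry no replicate numbers. The median over all genes lay between -0.02 and 0.018 (log2) with TMM and between -0.025 and 0.014 with RLE scaling, which changed none of the counts of members called. Counts of members called moved by over 1.5 times as follows: between media in untreated spheroids, 7 in the fit of those 2 groups alone in place of 4; with hemin in Medium 1, in place of 0, 1 with no filter, 1 with a minimum count of 30, 4 without wells B2 and A7, 4 with 2 groups and 3 with DESeq2, which called 509 genes of the table there where edgeR called 15; with kynurenine in Medium 1, 1 with plate row and 1 with 2 groups in place of 0. With hemin plus kynurenine in Medium 2 the count was 2 with a minimum count of 30, 2 without B2 and A7, 3 with 2 groups and 2 with DESeq2, in place of 1. For any exposure in Medium 1 it was 1 with no filter and 2 without B2 and A7 in place of 0. Hemin plus kynurenine against kynurenine in Medium 2 had 0 with plate row, 0 without B2 and A7 and 0 with 2 groups in place of 2, and against hemin 1 without B2 and A7, 1 with 2 groups and 1 with DESeq2 in place of 0. Leaving out each library in turn gave 0 to 2 for hemin in Medium 1, 0 to 1 for kynurenic acid in Medium 2, 0 to 2 for any exposure in Medium 1, 1 to 2 for any exposure in Medium 2, and 0 to 2 for hemin plus kynurenine against kynurenine in Medium 2. Over all alternatives and left-out libraries the counts between media moved by less with butyrate (4 to 6), hemin (4 to 6), kynurenine (3 to 4), hemin plus kynurenine (2 to 4) and on average (7 to 9). The cause was not tested.

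Changes of sign were seen only for values near 0 that were not called. MYC with kynurenine between media was 0.01, -0.01 with a minimum count of 30 and 0.00 with 2 groups. KLF10 with kynurenic acid between media was 0.00, with -0.01 under RLE scaling, 0.00 with no filter, -0.03 with a minimum count of 30, 0.00 without B2 and A7, -0.02 with 2 groups and -0.01 with DESeq2. Leaving out each library in turn gave, between media, -0.17 to 0.00 for FOSL1 with butyrate, -0.16 to 0.28 for MYC and -0.07 to 0.35 for KLF10 with kynurenine, -0.09 to 0.06 for FOSL1, -0.09 to 0.46 for FOS, -0.09 to 0.37 for MYC and -0.15 to 0.24 for KLF10 with kynurenic acid, and -0.03 to 0.15 for FOSL1 and -0.09 to 0.21 for KLF10 with hemin plus kynurenine. The joint EGR1 interaction stayed past the threshold under every alternative run, with adjusted p from 0.000254 to 0.0232. FOS, at 0 to 29 counts per library, is the member whose differences depth limits most.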
